A study of Homo sapiens with 6 samples.

Results

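TXNIP, the 4 alpha-arrestins named ARRDC1 to ARRDC4, and the transcription factors MLXIP (MondoA), MLXIPL (ChREBP) and MLX were followed in the transcriptome of HT29 cells deprived of a single amino acid. These 8 genes were taken by their gene symbols from the 60676 genes listed in the deposited tables, and all 8 had enough reads to be tested in each comparison. They were chosen with their responses to the depletions already known, so their values are given as a description and without p-values. HT29 is an established human colorectal adenocarcinoma line, and the cells were wild type in every group. They were kept for 48 h in control medium (untreated), in medium lacking histidine, or in medium lacking tryptophan, with 2 libraries per condition and 6 in all. The sources do not say whether the 2 libraries of a condition came from separate cultures, so the p-values given for other genes measure only the spread between these libraries. The histidine-free medium was made from an RPMI base to which glucose and the remaining amino acids were added, the tryptophan-free medium was made from a DMEM F-12 base, and both held dialyzed serum. The base and the glucose content of the control medium used for RNA sequencing are not given in the sources used here. Effects of the missing amino acid and of the base medium, glucose included, therefore cannot be told apart in any of the comparisons.

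MondoA and ChREBP are basic helix-loop-helix leucine zipper proteins that pair with MLX, enter the nucleus when glucose phosphates accumulate, and bind pairs of E-box-like sequences called carbohydrate response elements. TXNIP and ARRDC4 are among their known targets. TXNIP is an arrestin-fold protein that binds thioredoxin and lowers glucose uptake by driving glucose transporters off the cell surface, while the ARRDC proteins act as adaptors that bring NEDD4 family ubiquitin ligases to membrane proteins. ChREBP is known mainly from liver, fat and intestine, and MondoA from skeletal muscle and most dividing cells.

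The libraries held between 46390819 and 64388876 reads, and the untreated libraries gave the same reads from both deposited tables. The summed reads of 9 colon epithelial markers were 372711 to 434983 in untreated cells, 514360 to 547678 without histidine and 530741 to 614323 without tryptophan. The markers did not move together, since 3 rose and 6 fell without histidine (median log2 difference -0.52) and 4 rose and 2 fell without tryptophan (median 0.11), and CDX1, an intestinal transcription factor, was at 0 in both histidine-depleted libraries. CDX1 passed the low-value filter only through the untreated libraries, and without it 3 rose and 5 fell of 8 markers without histidine, and 4 rose and 1 fell of 8 without tryptophan. The part of these shifts in the values of the 8 genes was not tested. The summed reads of 5 fibroblast markers were 65 to 72 in untreated cells, 38 to 39 without histidine and 54 to 70 without tryptophan. The 5 leukocyte markers summed to 59314 to 69822 reads in untreated cells, 13808 to 14258 without histidine and 35717 to 41643 without tryptophan. Nearly all of these reads came from LYZ, a lysozyme gene also made by intestinal epithelium, while PTPRC, CD3E and CD68 each had between 0 and 3 reads. The part of these changes in the values of the 8 genes was not tested either. Among the tested genes, the second call rule used below (a log2 difference of at least 1 beside an adjusted p under 0.05) was added because most genes passed the p threshold alone.

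The promoters of TXNIP and ARRDC4 are shown because these genes had the largest increases of the 8 under both depletions. Each sequence holds the 250 bases before the RefSeq start site on the gene's strand in GRCh38.p14, 5′ to 3′, from chr1:145996580-145996829 on the minus strand for TXNIP and chr15:97960453-97960702 on the plus strand for ARRDC4. Capitals mark a paired E-box-like element (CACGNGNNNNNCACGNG), an E-box (CACGTG) and a CCAAT box (CCAAT, or ATTGG where it lies on the other strand).
TXNIP: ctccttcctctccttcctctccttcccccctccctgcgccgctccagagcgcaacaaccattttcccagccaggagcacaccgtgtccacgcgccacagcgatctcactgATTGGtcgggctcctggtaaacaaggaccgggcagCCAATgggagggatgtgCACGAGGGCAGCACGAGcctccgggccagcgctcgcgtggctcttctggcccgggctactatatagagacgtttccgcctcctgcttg
ARRDC4: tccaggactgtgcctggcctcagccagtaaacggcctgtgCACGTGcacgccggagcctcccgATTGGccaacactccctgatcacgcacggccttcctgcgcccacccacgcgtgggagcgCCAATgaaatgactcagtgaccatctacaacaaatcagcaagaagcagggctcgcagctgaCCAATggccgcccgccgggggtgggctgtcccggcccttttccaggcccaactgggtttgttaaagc

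Motifs were searched on both strands in windows from 250 bases before to 50 bases after the start, and a match is a description of the letters, not of binding. The paired element of TXNIP lay at positions -88 to -72 relative to its start, near a pair of CCAAT boxes. Its letter pattern was written with the TXNIP element known, so its presence there is no finding, and among 35116 such windows of the genome 0.057% held it. None of the other 7 genes had this pattern, and other forms of a paired element were not searched for, so no absence of such elements is read from it. An E-box, which 7.26% of all windows held, was found in ARRDC4 at -210 to -205 and in MLX at -50 to -45. These sites are shown with their flanks for comparison.
TXNIP: tgtgCACGAGGGCAGCACGAGcctc
ARRDC4: tgtgCACGTGcacg
MLX: gggtCACGTGggca
A CCAAT box, present in 34.6% of all windows, was found in 7 of the 8 genes, with MLXIPL as the exception. ARRDC4 had 3 matches and TXNIP 2. The core of the amino acid response element (TGATGNAA), to which ATF4 is known to bind, was in none of the 11 windows of the 8 genes (2 windows each for TXNIP, ARRDC2 and ARRDC3) and in 3.62% of all windows. In the 1000 bases before the GENCODE start, MLXIP also held an E-box, which 16.7% of such windows did.

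TXNIP and ARRDC4 stood far above their untreated levels under both depletions. Levels are given as normalized counts on a scale shared by the 6 libraries, and log2 differences come from limma on each depletion's own table, with their standard error (SE). TXNIP, on chromosome 1 (ENSG00000265972, chr1:145992435-145996579, minus strand, GRCh38), had 4164 and 4255 normalized counts in the untreated libraries. In the histidine-depleted libraries it had 95203 and 94892, and in the tryptophan-depleted ones 39267 and 39228. The 3 conditions did not overlap, and the 2 libraries of each depletion were close to each other. The mean level was 22.6-fold higher without histidine and 9.32-fold higher without tryptophan. On the log2 scale, TXNIP was higher by 4.51 (SE 0.0512) after histidine depletion and by 3.21 (SE 0.0471) after tryptophan depletion. These differences placed TXNIP 108th from the top of 18288 tested genes and 88th of 17960. In order of reads within a library, TXNIP went from places 2894 and 2930 in untreated cells to place 47 in both histidine-depleted libraries, and to places 161 and 163 in the tryptophan-depleted ones. As in any bulk sample, a higher level per cell and a larger share of cells with a high level cannot be told apart.

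ARRDC4, the alpha-arrestin known to share with TXNIP its control by glucose, started from a much lower level. Located on chromosome 15 (ENSG00000140450, chr15:97960703-97973833, plus strand), it had 330.1 and 373 normalized counts in untreated cells. The histidine-depleted libraries had 6906 and 6723, and the tryptophan-depleted libraries 3733 and 3892. As for TXNIP, the conditions did not overlap, with the highest level in the libraries without histidine. The mean was 19.4-fold higher without histidine and 10.8-fold higher without tryptophan, and the log2 differences were 4.28 (SE 0.0642) and 3.43 (SE 0.0621). On the joint scale, TXNIP was 2.42-fold and ARRDC4 1.79-fold higher without histidine than without tryptophan, log2 differences of 1.28 (SE 0.0379) and 0.84 (SE 0.0557).

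**Figure D1:**
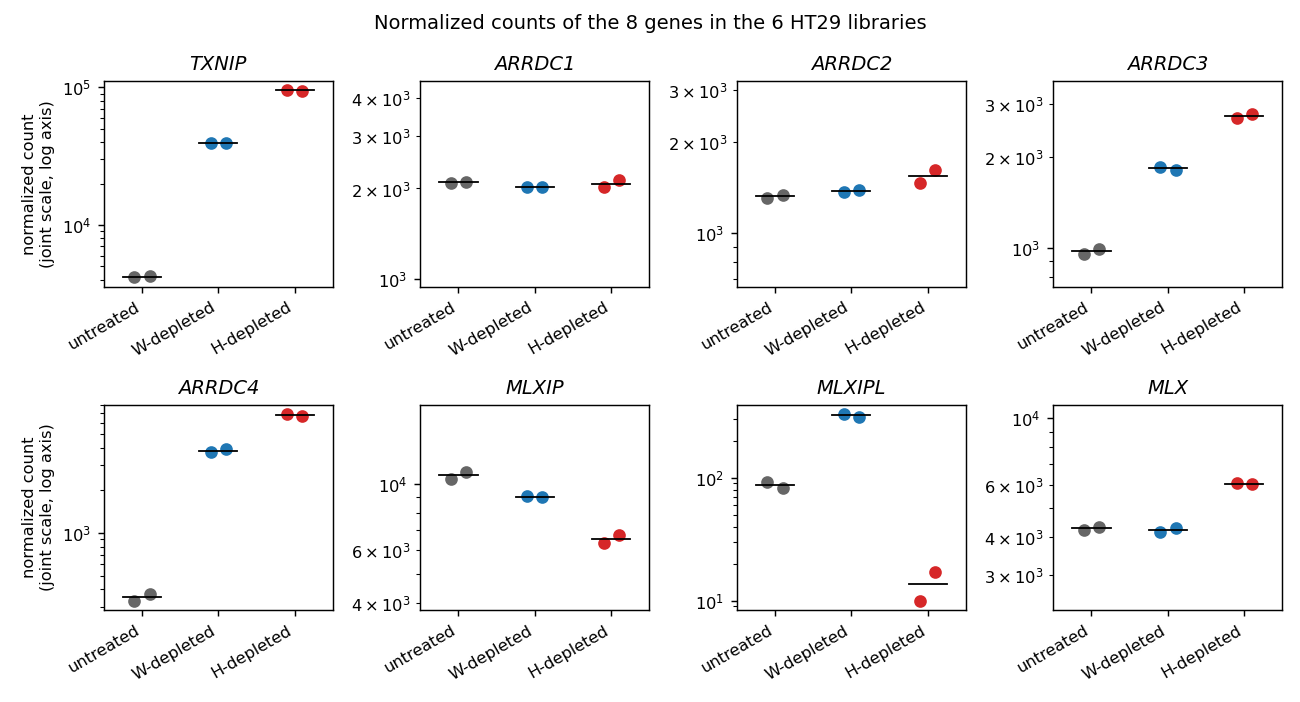
Normalized counts on the joint scale (log axes) of the 8 genes in each library, with points for the 2 libraries of each condition and a black line at their mean. TXNIP and ARRDC4 sit highest in the histidine-depleted libraries and between these and the untreated ones in the tryptophan-depleted libraries, while MLXIPL is lowest without histidine (9.94 and 17.3) and highest without tryptophan (329.7 and 314.1).

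The remaining alpha-arrestins moved less. ARRDC3, an adaptor known for the downregulation of beta-adrenergic receptors, is on chromosome 5 (ENSG00000113369, chr5:91368631-91383317, minus strand). It had 955 and 992 normalized counts in untreated cells, 2701 and 2786 without histidine, and 1857 and 1816 without tryptophan. The 3 conditions were again separate, in the same order as for TXNIP. Its mean was 2.82-fold higher without histidine and 1.89-fold higher without tryptophan, with log2 differences of 1.50 (SE 0.0583) and 0.91 (SE 0.0587). An antisense gene, ARRDC3-AS1, covers 2.91% of its exon bases and had 30 to 43 reads per library.

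ARRDC2, a less studied adaptor of the same family (chromosome 19, ENSG00000105643, chr19:18001132-18014102, plus strand), had 1307 and 1341 normalized counts in untreated cells. It had 1469 and 1620 without histidine, and 1372 and 1385 without tryptophan. Both depletions gave levels above the untreated ones, by small amounts. The log2 difference was 0.23 (SE 0.0627) after histidine depletion, and 0.16 without the second histidine-depleted library, where it no longer passed the threshold. After tryptophan depletion it was 0.051 (SE 0.0585), which did not pass.

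ARRDC1, known for the budding of small vesicles from the plasma membrane (chromosome 9, ENSG00000197070, chr9:137605685-137615360, plus strand), stayed close to its untreated level. Its normalized counts were 2092 and 2099 in untreated cells, 2023 and 2128 without histidine, and 2021 and 2016 without tryptophan. The untreated and histidine-depleted libraries overlapped. The log2 difference was -0.0053 after histidine depletion, with a 95% confidence interval from -0.12 to 0.11, and -0.061 after tryptophan depletion, with an interval from -0.17 to 0.043. These intervals bound the difference without showing that the levels were equal. ARRDC5, another alpha-arrestin gene, had at most 1 read in any library and was not tested.

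The transcription factors differed from one another in direction. MLXIP, which encodes MondoA and lies on chromosome 12 (ENSG00000175727, chr12:122078756-122147344, plus strand), was the member of the trio that was lower under both depletions. It had 10381 and 10949 normalized counts in untreated cells, 6315 and 6714 without histidine, and 9087 and 8999 without tryptophan. No library of 1 condition overlapped with those of another. The mean was 1.64-fold lower without histidine and 1.18-fold lower without tryptophan, with log2 differences of -0.70 (SE 0.0515) and -0.24 (SE 0.0467).

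MLXIPL, which encodes ChREBP and lies on chromosome 7 (ENSG00000009950, chr7:73593194-73624543, minus strand), was lower without histidine and higher without tryptophan. It was the least abundant of the 8 genes, with 85 and 83 reads in untreated cells, 11 and 17 without histidine, and 309 and 343 without tryptophan. As normalized counts these were 92.9 and 82.6, then 9.94 and 17.3, then 329.7 and 314.1. The 3 conditions were separate, although the histidine-depleted value rests on few reads. The mean was 6.44-fold lower without histidine, a log2 difference of -2.64 (SE 0.280), and 3.67-fold higher without tryptophan, a log2 difference of 1.86 (SE 0.133). Between the depletions it differed by 23.6-fold, a log2 difference of -4.51 (SE 0.220), which placed it 35th from the bottom of 18276 tested genes.

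MLX, the shared partner of both factors (chromosome 17, ENSG00000108788, chr17:42567072-42573239, plus strand), had 4245 and 4338 normalized counts in untreated cells. It had 6068 and 6026 without histidine, and 4165 and 4301 without tryptophan. The histidine-depleted libraries stood above all others, and the tryptophan-depleted ones overlapped with the untreated ones. The mean was 1.41-fold higher without histidine, a log2 difference of 0.50 (SE 0.0495). After tryptophan depletion the log2 difference was -0.027, with a 95% confidence interval from -0.12 to 0.067. PSMC3IP, on the opposite strand, shares 18.2% of the exon bases of MLX and had 438 and 421 reads in untreated cells, 654 and 603 without histidine, and 81 and 116 without tryptophan. Whether strand was used in counting is not given in the sources, and the part of PSMC3IP reads in the MLX values was not tested.

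After histidine depletion 5 of the 8 genes (TXNIP, ARRDC4, ARRDC3, MLX and ARRDC2) passed an adjusted p of 0.05 as higher, as did 39.1% of all 18288 tested genes. MLXIP and MLXIPL passed as lower, as did 38.2% of tested genes. With a log2 difference of at least 1, TXNIP, ARRDC4 and ARRDC3 were higher, against 16.4% of tested genes, and MLXIPL lower, against 16.1%. After tryptophan depletion TXNIP, ARRDC4, MLXIPL and ARRDC3 passed as higher (36.1% of 17960 tested genes) and MLXIP as lower (34.8%). TXNIP, ARRDC4 and MLXIPL were higher by at least 1, as were 10.0% of tested genes, and none of the 8 was lower by that much, against 10.4%. In the direct comparison of the depletions, 5 of the 8 passed as higher without histidine (39.1% of 18276 tested genes) and MLXIP and MLXIPL as lower (37.8%). Since the genes were chosen on these comparisons, nothing is read from the counts. Over all tested genes the median log2 difference was 0.010 without histidine and 0.013 without tryptophan.

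Scaled to exon length, as reads per kilobase of exon scaled to sequencing depth (RPKM), levels can be set beside each other across genes. In untreated cells TXNIP was at 22.7 ± 0.159 (SD, n = 2), followed by MLX at 19.6, MLXIP at 14.9, ARRDC1 at 10.7, ARRDC2 at 5.54, ARRDC3 at 3.79, ARRDC4 at 1.68 and MLXIPL at 0.354 RPKM. This order holds for the union of all exons, and with the longest transcript as length MLX at 32.2 RPKM stood above TXNIP at 28.1 and MLXIP at 24.7. After histidine depletion, again over the union of exons, TXNIP reached 452 ± 3.27 RPKM, with ARRDC4 next at 28.7 ± 0.690 and MLX at 24.3. ARRDC3 at 9.43 and ARRDC1 at 9.38 RPKM did not differ beyond their spread there, and no other neighbours in the order overlapped in any condition. After tryptophan depletion TXNIP was at 200.2 ± 0.624, MLX at 18.3 and ARRDC4 at 17.3 ± 0.467 RPKM. On this length ARRDC4 went from seventh place to the second and the third. With the longest transcript it stayed below MLX, which was at 40.1 RPKM without histidine and 30.1 without tryptophan, and in the latter also below MLXIP at 19.8.

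**Figure D2:**
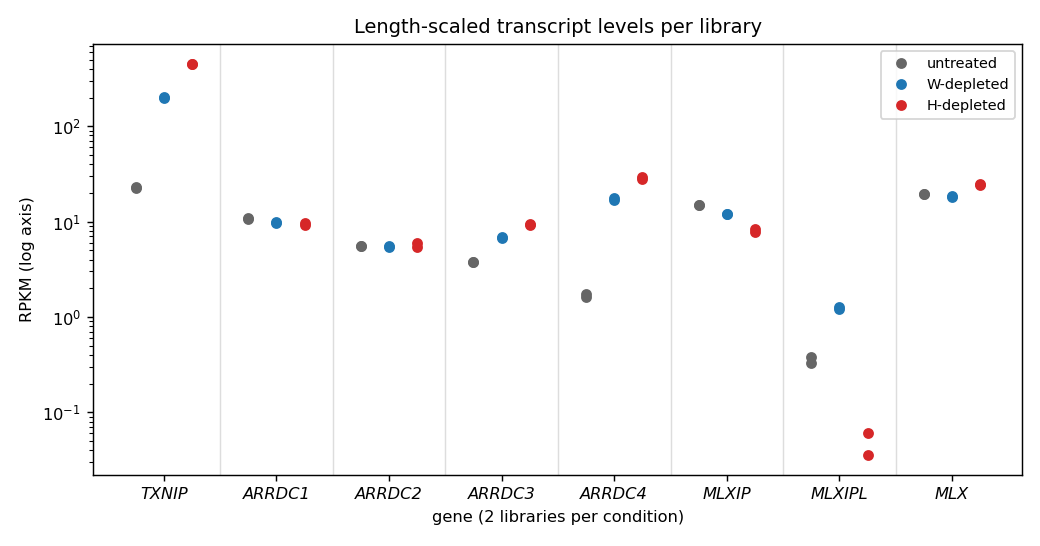
RPKM over the union of exons (log axis) of the 8 genes in each of the 6 libraries, coloured by condition. TXNIP is the highest of the 8 in every library, from 22.7 RPKM on average in untreated cells to 452 without histidine, and MLXIPL is the lowest.

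Ratios within a library show how the balance among these genes moved. TXNIP took 51.1% and 51.0% of the length-scaled sum of TXNIP and ARRDC1 to ARRDC4 in the untreated libraries. That share was 89.5% and 89.4% without histidine, and 83.7% and 83.5% without tryptophan. The ratio of TXNIP to ARRDC4 per length changed much less than either gene, from 14.2 and 12.9 in untreated cells to 15.5 and 15.9 without histidine and 11.9 and 11.4 without tryptophan. Among the transcription factors, MLXIP per MLX was 0.750 and 0.774 in untreated cells, 0.319 and 0.342 without histidine, and 0.669 and 0.642 without tryptophan. MondoA mRNA exceeded ChREBP mRNA per length in every library. Their ratio was 38.8 and 46.0 in untreated cells, 220.6 and 134.8 without histidine, and 9.57 and 9.95 without tryptophan.

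The genes whose pair of log2 differences lay closest to that of TXNIP were looked for among 11006 other protein-coding genes whose mean over the 6 libraries reached 100 normalized counts. They were SMOC2 and TNC, which encode extracellular matrix proteins, then CEACAM19, GUCA1B and the histone gene H4C14, at distances of 0.449 to 0.892 log2 units over the 3 conditions. TNC went from 228.1 ± 31.9 normalized counts (SD, n = 2) in untreated cells to 5171 ± 168 without histidine and 1422 ± 102 without tryptophan. SMOC2 went from 6.86 ± 2.67 to 234 ± 1.35 and 70.2 ± 22.4. SMOC2, GUCA1B (13.1 in untreated cells) and H4C14 (27.8) reached the required mean only through the depleted libraries, so their place in this order rests on few untreated reads. ARRDC4 lay at 0.310, nearer to TXNIP than any of these 11006 genes, and ARRDC3 at 3.79. Because both differences use the same untreated libraries, this likeness is a description only.

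**Figure D3:**
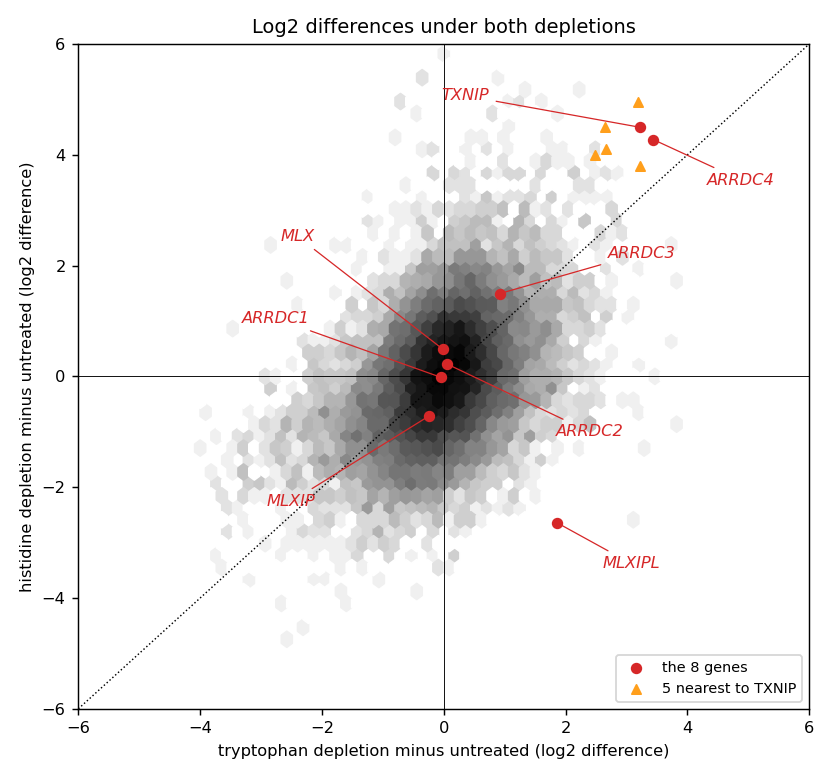
Log2 difference after tryptophan depletion (x axis) against that after histidine depletion (y axis) on the joint scale for 18264 genes, drawn as hexagons shaded by their number. The 8 genes are in red, the 5 genes nearest to TXNIP are orange triangles, and a dotted line marks equal differences. The axes end at 6 log2 units and 21 genes lie outside them. TXNIP and ARRDC4 lie at the upper right, above the line, and MLXIPL at the lower right.

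The known targets of MondoA and ChREBP other than TXNIP and ARRDC4 included genes that rose and genes that fell. The counts of this and the following lists stand beside the shares over all tested genes, of which 39.1% rose and 38.2% fell without histidine, and 36.1% and 34.8% without tryptophan. Of 21 listed genes, 17 were tested after histidine depletion, and 5 rose, 8 fell and 4 did not pass, with a median log2 difference of -0.092. After tryptophan depletion 16 were tested, and 10 rose, 4 fell and 2 did not pass, with a median of 0.23. KLF10, a transcriptional repressor induced by glucose, went from 4688 ± 165 to 16049 ± 177 normalized counts without histidine, a log2 difference of 1.78 (SE 0.0498, limma adjusted p = 6.94e-20). It also rose without tryptophan, by 0.74 (limma adjusted p = 6.30e-32). PFKFB3, which makes the activator of phosphofructokinase, rose by 0.99 and 0.19, and HK2, a hexokinase, by 0.89 and 0.35. KHK, the fructokinase, fell under both depletions, with log2 differences of -1.66 and -1.96.

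Of the 16 targets tested in both depletions, 11 passed in both, as did 59.1% of the 17470 genes tested in both, which share the untreated libraries. Of these, 5 (GPD1, GCKR, RGS16, TKT and TALDO1) fell without histidine and rose without tryptophan, and 1, ACLY, which makes cytosolic acetyl-CoA, did the opposite, with log2 differences of 0.15 and -0.50. Over all 17470 genes the shares with such opposite calls were 9.44% and 8.55%, and with counts this small nothing particular to the targets is read from them. GPD1, the cytosolic glycerol phosphate dehydrogenase, fell from 489 ± 32.7 to 234 ± 31.7 normalized counts without histidine and rose from 484 ± 33.7 to 1438 ± 101 without tryptophan. The direct difference was -2.65 (SE 0.0933, limma adjusted p = 5.63e-14). GCKR, which encodes the glucokinase regulatory protein, had log2 differences of -2.34 and 1.15, and TKT, the transketolase, of -0.92 and 0.27. RGS16, a regulator of G protein signalling, was at -0.31 and 1.14, and TALDO1, the transaldolase, at -0.75 and 0.12. GCKR, TKT, RGS16, TALDO1 and ACLY were picked after their values were seen. FGF21, a secreted hormone that also answers to ATF4, had a log2 difference of 3.19 (limma adjusted p = 1.64e-40) without tryptophan and of 0.071 (limma adjusted p = 0.816) without histidine.

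MYC, MAX and the MXD proteins form the related network that binds the same E-boxes and that can share MLX. Of 9 tested genes, 3 rose and 4 fell after histidine depletion (median -0.079), and 3 rose and 3 fell after tryptophan depletion (median -0.0058). MXD1, a MYC antagonist, rose by 0.73 under each depletion (limma adjusted p = 3.35e-12 and 2.10e-30). MXD3, another of them, fell by 1.61 and 1.43 on the log2 scale. MXI1 fell by 0.99 without histidine and rose by 0.28 without tryptophan. MYC itself fell by 0.81 on the log2 scale without tryptophan, and had a log2 difference of -0.079 (limma adjusted p = 0.167) without histidine.

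Among other factors that recognise E-boxes, TFE3, a regulator of lysosomal genes and nutrient sensing, went from 5493 ± 208 to 23234 ± 229 normalized counts without histidine. This was a log2 difference of 2.08 (limma adjusted p = 4.35e-21), and TFE3 also rose by 0.70 without tryptophan. Of 7 tested genes, 4 rose and 3 fell after histidine depletion (median 0.18), and of 6 tested after tryptophan depletion 2 rose and 2 fell (median 0.082). MITF rose from 9.90 ± 2.82 to 102 ± 1.92 without histidine and was too low to be tested without tryptophan. It passed the filter on low values only through the histidine-depleted libraries, and without it 3 of 6 genes rose and 3 fell. TFEB fell by 0.76 and rose by 0.59, while SREBF2, the regulator of cholesterol synthesis, rose by 0.68 and fell by 0.40. USF2 fell by 0.79 on the log2 scale without histidine and had a log2 difference of 0.095 (limma adjusted p = 0.0651) without tryptophan.

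The thioredoxin system, which TXNIP binds and restrains, moved in both directions. Of 16 tested genes, 6 rose and 8 fell without histidine (median -0.14), and 3 rose and 9 fell without tryptophan (median -0.30). TXN, the thioredoxin bound by TXNIP, went from 17161 ± 898 to 12788 ± 163 normalized counts without histidine (log2 difference -0.42, limma adjusted p = 8.38e-08) and from 17013 ± 845 to 9329 ± 34.2 without tryptophan (log2 difference -0.87, limma adjusted p = 1.97e-37). TXN thus fell under both depletions, and TXNIP was higher under both. TXNRD1, the cytosolic thioredoxin reductase, rose by 1.06 and 1.66. The mitochondrial peroxiredoxin PRDX3 fell by 1.02 and 1.09, and PRDX2, a cytosolic one, by 0.98 and 1.14. Among the other named genes of the system, the methionine sulfoxide reductase MSRA rose by 1.21 and its relative MSRB2 fell by 1.10 without histidine. The reductase TXNRD3 fell by 1.86 on the log2 scale in the same comparison.

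Glucose transporters and hexokinases, on which TXNIP and MondoA are known to act, were divided as well. Of 12 tested genes, 4 rose and 7 fell without histidine (median -0.54), and 6 rose and 1 fell without tryptophan (median 0.21). SLC2A1, which encodes GLUT1, went from 23271 ± 1168 to 34406 ± 306 normalized counts without histidine (log2 difference 0.56, limma adjusted p = 1.47e-09). Without tryptophan it was at 21594 ± 51.0 against 23070 ± 1098 (limma adjusted p = 0.0818). SLC2A9, a urate and fructose transporter, rose from 50.6 ± 15.7 to 863 ± 59.3 without histidine, by 4.10 on the log2 scale, and by 0.76 without tryptophan. HKDC1, a hexokinase-like enzyme, fell from 3872 ± 345 to 246 ± 35.4 without histidine, a log2 difference of -3.97, and rose by 0.89 without tryptophan. SLC5A1, the intestinal sodium-glucose cotransporter, fell by 3.13 and rose by 0.17, and SLC2A10 fell by 2.63 and rose by 0.57. SLC2A12 fell by 0.65 and 0.42.

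The NEDD4 family ubiquitin ligases, partners of the alpha-arrestins, numbered 8 tested genes after histidine depletion, of which 5 rose and 2 fell (median 0.51). HECW2 passed the low-value filter only through the histidine-depleted libraries, and without it 4 of 7 rose. After tryptophan depletion 7 were tested, of which 3 rose and 4 fell (median -0.28). ITCH, the ligase known to act on TXNIP, rose by 0.21 without tryptophan. Without histidine its log2 difference was 0.062 (limma adjusted p = 0.261), and its sign and call depended on the processing, with -0.17 after quantile normalization (limma adjusted p = 0.00045) and 0.10 without the second untreated library (limma adjusted p = 0.028). NEDD4 rose by 1.19 and 0.18. SMURF2 rose by 0.92 without histidine and fell by 0.80 without tryptophan, and NEDD4L rose by 0.44 and fell by 0.46. WWP1 fell by 0.80 and 0.28, and WWP2 by 0.67 and 0.31.

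Other genes for proteins with an arrestin fold moved by less than TXNIP. Of 5 tested genes, 2 rose and 3 fell without histidine (median -0.24), and 2 rose and 1 fell without tryptophan (median 0.097). With quantile normalization 5 passed without tryptophan. ARRB1, a beta-arrestin that ends receptor signalling, fell by 0.50 and rose by 0.15, and its paralog ARRB2 fell by 0.24 and 0.85. The retromer subunit gene VPS26A rose by 0.80 and VPS26B fell by 0.73 without histidine, while the related VPS26C rose by 0.91. None of these 5 genes differed from untreated cells by 1 or more on the log2 scale in either depletion.

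AMPK and FOXO proteins are known regulators of TXNIP, by its degradation and by its transcription. Of 9 tested genes, 5 rose and 4 fell after histidine depletion (median 0.25), and 4 rose and none fell after tryptophan depletion (median 0.077). FOXO6, one of those that fell, passed the low-value filter only through its untreated libraries. With quantile normalization more of the 9 genes passed after tryptophan depletion, as given below under the processing. PRKAG2, a regulatory subunit of AMPK, rose by 1.11 and 0.35, and PRKAB2 by 0.80 and 0.70. FOXO1 rose by 0.78 without histidine and had a log2 difference of 0.077 (limma adjusted p = 0.190) without tryptophan, and FOXO3 rose by 0.25 and 0.29.

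The genes known to answer to amino acid shortage through ATF4 were listed as a check of the depletions. All 8 rose without tryptophan, with a median log2 difference of 1.02. Without histidine 3 rose, 3 fell and 2 did not pass, with a median of -0.089. DDIT3, a stress-induced transcription factor, rose by 0.69 without histidine and 1.99 without tryptophan, and ATF3 by 1.49 and 0.98. CHAC1, which degrades glutathione, rose by 0.27 and 1.56. TRIB3, a pseudokinase that restrains ATF4, fell by 0.76 without histidine and rose by 1.06 without tryptophan, and SESN2 and PSAT1 were the other 2 that fell without histidine, by 0.51 and 0.65. VLDLR, a lipoprotein receptor, rose by 1.84 without tryptophan and had a log2 difference of -0.075 (limma adjusted p = 0.484) without histidine. Between the depletions, 7 of these 8 listed genes were lower without histidine than without tryptophan, with ATF3 as the exception. In that comparison 37.8% of all tested genes were lower without histidine and 39.1% higher. Among TXNIP and the other genes followed here, TXNIP, ARRDC4, ARRDC3, MLX and ARRDC2 were higher without histidine. MLXIP (-0.47) and MLXIPL (-4.51) were lower, and ARRDC1 did not pass. A part of ATF4 in these levels was not tested.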

How the data were processed

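RNA sequencing of HT29 cells gave 6 libraries. Per the submitters' processing notes, reads were aligned with STAR 2.7.10a, counted with HTSeq 2.0.5 and normalized with DESeq2, on GENCODE release 38. The authors deposited normalized counts (treated here as a signal) in 1 table per depletion, each with the same untreated libraries and normalized separately. Handling of molecular identifiers and of strand is not given in the sources used here. In each library 100% of the deposited values were whole multiples of 1 step (within 0.01 of a read), so reads were recovered. Depth was between 46390819 and 64388876 reads, which limits only low genes such as MLXIPL.

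Names and coordinates came from GENCODE release 44, in which 60357 of 60676 identifiers were found, and promoter sequences from RefSeq (GRCh38.p14), in which all 8 genes were matched. Each depletion was compared with untreated cells within its own table by limma 3.58.1 in R 4.3.3 (trend, not robust, two-sided) after adding 1 to each normalized count and taking log2, keeping means of 10 or more, with Benjamini-Hochberg adjustment over all tested genes at 0.05. A fold on this scale understates the change of low genes. The depletions were compared with each other after median-of-ratios scaling of the reads of all 6 libraries together. On the recovered reads, edgeR 4.0.16 with TMM called 14280, 12839 and 14333 genes in the 3 comparisons. Other alternatives were DESeq2 1.42.0 on these reads, quantile normalization, limma with the trend off, pseudocounts of 8 and 0.5, a minimum mean of 50 or none, the replicate number as a block, 1 fit over all 6 libraries, and the loss of each library in turn.

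Named from each list, per depletion, were up to 3 genes with the largest difference past the threshold, groups that did not overlap and a mean of 100 or more in the higher one, with TXN, SLC2A1, ITCH, ARRB1, ARRB2 and ARRDC5 by name. PFKFB3, HK2, GCKR, TKT, RGS16, TALDO1, ACLY, HECW2, FOXO6, SESN2 and PSAT1 were added after their values were seen. The 8 genes, the 9 lists and the tests were chosen with earlier results of these data known. The code was tested on simulated data. Python 3.11.15 with pandas 2.3.3, numpy 2.4.6 and matplotlib 3.10.9 was used for tables and plots.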

Additional observations from a re-analysis of the deposited data

Results flagged for a closer look

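The 53 genes examined were the 8 genes and those genes named by rule or fixed by name that were tested in both depletions. Of these, 13 (24.5%) had opposite differences from untreated cells in the 2 depletions, each past the threshold and without overlap of the groups. Of the 17470 genes tested in both depletions 17.9% met the same conditions. Since the genes named by rule were taken by the size of their differences, nothing is read from the count. The values below are the direct log2 difference of histidine depletion from tryptophan depletion on the joint scale, and those of the genes from the lists passed an adjusted p of 0.05 in limma. MLXIPL, the ChREBP gene, was the only one of the 8 genes described above with opposite differences, and its direct difference was -4.51, given as a description. Lower without histidine and higher without tryptophan were also HKDC1 (-4.88), SLC5A1 (-3.32), SLC2A10 (-3.22), GPD1 (-2.65), TRIB3 (-1.83), TFEB (-1.37), MXI1 (-1.29), VPS26B (-1.08) and ARRB1 (-0.66). SMURF2 (1.70), SREBF2 (1.07) and NEDD4L (0.89) were higher without histidine and lower without tryptophan. TRIB3, a target of ATF4, went from 17542 ± 1978 to 10329 ± 285 normalized counts without histidine and from 17389 ± 1915 to 36114 ± 124 without tryptophan.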

How the results depend on the processing

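The log2 differences of TXNIP stayed between 4.31 and 4.52 without histidine and between 3.10 and 3.23 without tryptophan over 14 alternative settings, edgeR, DESeq2 and each library left out among them, those of ARRDC4 between 4.19 and 4.38 and between 3.34 and 3.52, and those of MLXIPL between -3.01 and -2.16 and between 1.77 and 1.94. ARRDC2 no longer passed after histidine depletion without the trend (0.23) or without the second histidine-depleted library (0.16), passed after tryptophan depletion with quantile normalization (0.11), and lost its call between the depletions in 4 settings. Values near 0 changed sign: ARRDC1 after histidine depletion (-0.039 to 0.028 with 1 library left out) and between the depletions (-0.0078, quantile normalization), MLX after tryptophan depletion (-0.057 to 0.0018 likewise), FGF21 after histidine depletion (-0.27 without untreated replicate 1, up to 0.41), MSRA after tryptophan depletion (0.13 with quantile normalization, 0.0065 with all 6 libraries, and -0.037 to 0.035 with 1 library left out) and MXD1 between the depletions (-0.053 to 0.031 likewise). Quantile normalization also turned ITCH (-0.17, past the threshold) and VLDLR (0.14) after histidine depletion and PRDX3 (-0.073) between the depletions, gave MXD1 a call there (-0.12), and after tryptophan depletion raised the called arrestin-fold genes from 3 to 5 and the called AMPK and FOXO genes from 4 to 7. The cause was not tested. With a log2 difference of at least 1, chosen after seeing the data, 5949 genes were called after histidine depletion, 3674 after tryptophan depletion and 5851 between the depletions, against 14130, 12721 and 14070 without it. Leaving out 1 library gave 12957 to 13851, 11005 to 12585 and 13010 to 14297. Deviations of same-numbered libraries correlated at 0.117, -0.0527 and -0.104 over 12480 genes. With 2 libraries per condition, these values cannot show whether same-numbered libraries shared a culture day or a batch. A replicate block gave 14432, 12766 and 14133 called genes. With the numbers of the tryptophan-depleted libraries crossed, chosen after seeing the data, 14246 genes were called between the depletions. With 2 libraries per condition, small differences such as those of ARRDC1 and ARRDC2, and of MLX without tryptophan, are the least firm, and reads limit MLXIPL without histidine.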
